A study of Mus musculus with 216 samples.

Results

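The T-box family of transcription factors is described here through the H3K9me3 domains in and around 10 of its genes: T (brachyury), Eomes, Tbx1, Tbx2, Tbx3, Tbx4, Tbx5, Tbx6, Tbx15 and Tbx20. Each gene was taken as its GENCODE vM21 body plus 10 kb on either side, and every domain that overlapped this window by at least 1 bp was kept. The genes were chosen by the readout itself, because T, Tbx3 and Tbx5 carried domains of the residual decay class. These 10 are among 21911 protein-coding genes, and their windows met 17 of 42890 domains, counted over the placed chromosomes. Among all of these domains, 4.57% are residual.

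The dTKO line used is a mouse embryonic stem cell line. Its genotype was Suv39h1fl/fl; Suv39h2-/-; Setdb1fl/fl at every time, so that the baseline carried the same alleles. The drugs auxin (100 µg/ml) and dTAG13 (0.5 µM), which send tagged proteins to degradation, were given at the start, and chromatin was collected at 0, 1, 3, 12, 24 and 48 h to follow how H3K9me3 and HP1β decay. The 216 samples are sequencing runs of H3K9me3, HP1β and their inputs, 54 of each kind and 9 per time, from 3 biological repeats whose libraries were each sequenced in 3 runs. The authors' deposited table gives each H3K9me3 domain 1 of 4 decay classes for the whole time course (fast, intermediate, slow or residual), with no level per sample or time. A class therefore has no replicate error and an unknown depth, nothing below is a test, and neither the identity of the cells nor the loss of the methyltransferases could be checked. No source used here says how the limits between classes were set or where residual stands among the other classes.

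T-box factors share a conserved DNA-binding domain, the T-box, and act in succession in the embryo: T, Eomes and Tbx6 in the forming mesoderm, others later in heart, pharynx, limb and skin. Tbx2 lies beside Tbx4, and Tbx3 beside Tbx5, as copies of an ancestral pair. H3K9me3 is the histone mark of heterochromatin, laid down by enzymes that include SETDB1 and the SUV39H proteins and bound by HP1 proteins. It is known mostly from repeats, and on genes of other lineages it can act as a barrier to their activation.

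Domains of the residual class lay at 7 of the 10 T-box genes: T, Tbx1, Tbx2, Tbx3, Tbx4, Tbx5 and Tbx15. Eomes and Tbx20 had an intermediate domain only, and Tbx6 had no domain. None of the 10 genes had a fast or a slow domain in its window. The 17 domains were 12 residual ones, together 46.5 kb, and 5 intermediate ones, together 27.0 kb. At least 1 domain was found at 9 of the 10 genes, where 42.2% of all protein-coding genes have one. The 7 genes with a residual domain stand beside 5.05% of all protein-coding genes. Nothing is read from either share, because residual domains chose the list and all of the 9 genes but Eomes and Tbx20 carried one. An intermediate domain was found at 4 of 10 T-box genes (Eomes, Tbx5, Tbx15 and Tbx20), a share near the 32.1% of all protein-coding genes. The share of all protein-coding genes with a slow domain was 12.6%, and with a fast domain 2.37%. The maps of the 10 genes show where the domains lie.

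**Figure D1:**
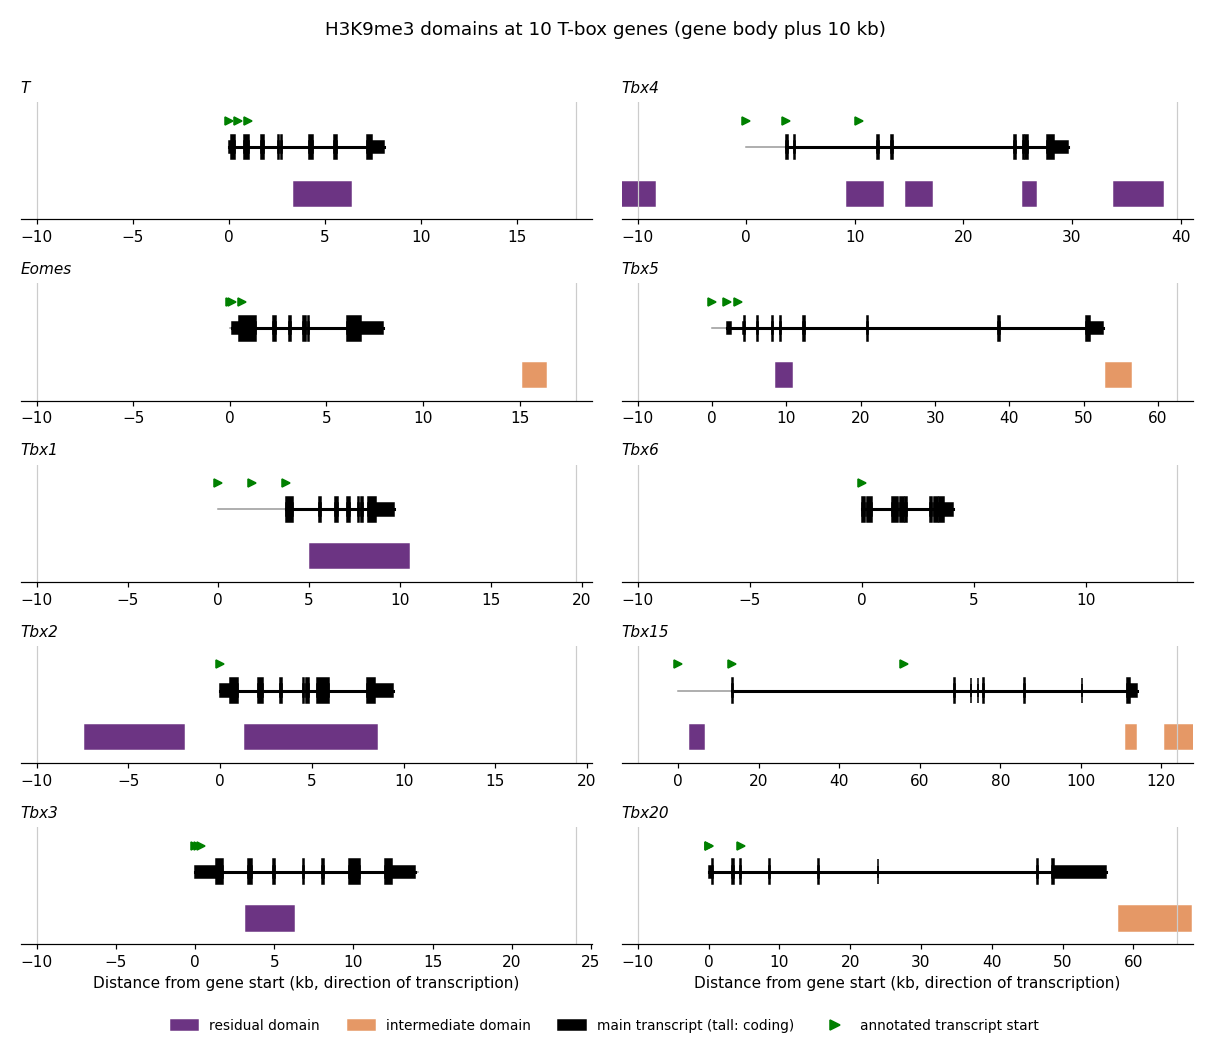
Maps of the 10 T-box genes, with distance from the gene start in kb along the direction of transcription. Black lines and boxes are the main transcript with its exons (tall boxes are coding), green arrowheads are annotated starts of coding transcripts, grey vertical lines mark 10 kb beyond the body, purple bars are residual domains and orange bars intermediate ones. Residual bars lie on the body of 7 genes, mostly past the start, and the orange bars lie past or at the end of Eomes, Tbx5, Tbx15 and Tbx20.

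Of T, Eomes and Tbx6, the T-box genes of early mesoderm in this set, only T had a residual domain. T, the brachyury factor, drives formation of the posterior mesoderm and the notochord. It spans 8.07 kb on the plus strand of chromosome 17 (8434423 to 8442496, GRCm38), and its single domain ran from 8437801 to 8440800. This domain of 3.0 kb began 3.38 kb and ended 6.38 kb past the start and covered 37.2% of the body. It held exons 6 and 7, with 307 coding bases that encode residues 244 to 345, all beyond the T-box of the protein (residues 36 to 234). The next domain, an intermediate one, was 27.2 kb away. For T and the genes that follow, a stretch of the domain is shown, read along the strand of the gene: the 300-base bin with the most coding bases and no untranslated base, or the middle bin where a domain has no coding base. It is printed with each CpG in capitals because CpG content is what separates the domains below.
T, residual, chr17:8439901-8440200, plus strand: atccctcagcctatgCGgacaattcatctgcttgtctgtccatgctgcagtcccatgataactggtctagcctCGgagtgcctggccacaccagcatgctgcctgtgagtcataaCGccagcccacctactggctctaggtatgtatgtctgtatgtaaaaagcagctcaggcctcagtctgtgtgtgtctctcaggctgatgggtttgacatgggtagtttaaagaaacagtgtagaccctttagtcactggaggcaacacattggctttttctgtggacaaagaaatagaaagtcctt
It held 3 CpGs in 300 bases, 130 of them coding.

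Eomes, a factor of gastrulation, definitive endoderm and trophoblast, had only an intermediate domain. It was 1.2 kb long (chromosome 9, 118493401 to 118494600) and began 7.27 kb past the 3′ end of the gene (118478212 to 118486132), with none on the body. Tbx6, which directs paraxial mesoderm away from a neural fate, had none within 10 kb. The nearest domain to Tbx6 (chromosome 7, 126781483 to 126785560) was intermediate, 2.7 kb long and 57.6 kb away, and the next was at 454 kb. Tbx6 was also the shortest of the 10 genes, with a body of 4.08 kb.

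Tbx2 and Tbx3 encode closely related repressors that act in heart and limb. Both carried a residual domain over exons that encode part of the T-box. Tbx3 is also known as a gene active in mouse embryonic stem cells, but no RNA was measured in these samples. At Tbx3 (chromosome 5, 119670669 to 119684724, plus strand) the domain of 3.0 kb (119673901 to 119676900) began 3.23 kb past the start. It covered 21.3% of the body and exons 2 and 3, whose 475 coding bases encode residues 130 to 268. At Tbx2 (chromosome 11, 85832551 to 85841948, plus strand) the domain of 7.2 kb (85833901 to 85841100) began 1.35 kb past the start. It covered 76.6% of the body, the largest share in these 10 genes, and exons 2 to 7, with 1738 coding bases for residues 132 to 711 of 711. A further residual domain of 5.4 kb (85825201 to 85830600) ended 1.95 kb before the start of Tbx2, over part of Bcas3 and the noncoding 2610027K06Rik. The first exon and the start of both genes lay outside the domains.
Tbx3, residual, chr5:119673901-119674200, plus strand: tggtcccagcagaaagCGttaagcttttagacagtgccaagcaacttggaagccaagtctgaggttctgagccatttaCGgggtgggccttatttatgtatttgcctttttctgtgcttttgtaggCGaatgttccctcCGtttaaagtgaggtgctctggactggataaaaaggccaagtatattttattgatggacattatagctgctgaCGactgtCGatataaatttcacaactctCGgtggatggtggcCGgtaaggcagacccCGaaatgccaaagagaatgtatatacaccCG
Tbx2, residual, chr11:85838101-85838400, plus strand: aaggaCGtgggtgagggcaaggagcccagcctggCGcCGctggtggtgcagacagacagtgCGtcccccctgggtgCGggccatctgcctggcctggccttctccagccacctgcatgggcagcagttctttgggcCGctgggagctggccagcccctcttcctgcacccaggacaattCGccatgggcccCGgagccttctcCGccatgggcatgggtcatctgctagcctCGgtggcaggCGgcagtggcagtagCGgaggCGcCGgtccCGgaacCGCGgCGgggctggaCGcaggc
The Tbx3 stretch had 10 CpGs and 175 coding bases, and the Tbx2 stretch, coding throughout, had 19 CpGs.

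Tbx4 and Tbx5 specify hindlimb and forelimb outgrowth, and Tbx5 is also a master factor of the heart, mutated in Holt-Oram syndrome in humans. Tbx4 had 5 residual domains, the most of the 10 genes, and Tbx5 had 1. Of the 5 at Tbx4 (chromosome 11, 85886422 to 85916097, plus strand), 3 lay on the body and covered 23.3% of it. The first of these (85895701 to 85899000, 3.3 kb) covered exon 3 and the third of the gene's 3 annotated coding starts. The second (85901101 to 85903500, 2.4 kb) was intronic, and the third (85911901 to 85913100, 1.2 kb) covered exons 6 and 7. Another domain of 5.4 kb (85872601 to 85878000) ended 8.42 kb before the gene, and another of 4.5 kb (85920301 to 85924800) began 4.20 kb after it. At Tbx5 (chromosome 5, 119832668 to 119885219, plus strand) the residual domain of 2.1 kb (119841301 to 119843400) began 8.63 kb past the gene start and covered 4.00% of the body. It held exon 5, with 148 coding bases for residues 121 to 170. An intermediate domain of 3.3 kb (119885701 to 119889000) began 0.481 kb past the end of Tbx5. Just outside its window were a slow domain of 14.7 kb at 10.7 kb and a residual one of 9.6 kb at 22.0 kb.
Tbx5, residual, chr5:119841601-119841900, plus strand: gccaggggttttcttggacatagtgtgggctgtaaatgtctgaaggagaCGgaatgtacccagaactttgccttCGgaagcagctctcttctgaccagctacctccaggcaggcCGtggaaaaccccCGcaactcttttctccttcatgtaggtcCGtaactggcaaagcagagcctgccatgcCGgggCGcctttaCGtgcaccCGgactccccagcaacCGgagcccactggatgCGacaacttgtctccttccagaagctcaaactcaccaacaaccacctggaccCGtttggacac
Tbx4, promoter inside a residual domain, chr11:85896515-85896814, plus strand: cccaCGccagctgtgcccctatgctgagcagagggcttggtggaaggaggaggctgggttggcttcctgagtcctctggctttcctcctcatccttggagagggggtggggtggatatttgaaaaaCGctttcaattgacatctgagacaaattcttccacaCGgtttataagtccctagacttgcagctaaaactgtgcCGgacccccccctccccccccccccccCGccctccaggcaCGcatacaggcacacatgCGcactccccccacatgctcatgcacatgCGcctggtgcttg
The Tbx5 stretch had 12 CpGs and contains exon 5 in full. The Tbx4 sequence is the RefSeq promoter (GRCm38.p6), 250 bases before and 50 after the start, and is shown because it was the only T-box promoter of that table inside a domain. It had 8 CpGs, and all 300 of its bases lay in the residual domain. The RefSeq table held 7 promoters of 6 of the 10 genes, and the other 6 touched no domain. Of all 32851 RefSeq promoters, 231 (0.703%) met a residual domain. Nothing is read from the 1 of 7 T-box promoters beside this share, because residual domains chose the list.

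Tbx1, Tbx15 and Tbx20 act in the pharyngeal arches and outflow tract, in skeleton and dermis, and in the heart. Their domains had little in common. At Tbx1, the gene behind much of the heart phenotype of 22q11 deletion in humans (mouse chromosome 16, 18580979 to 18590671, minus strand), the residual domain of 5.4 kb (18580201 to 18585600) began 1.37 kb past the start of the main transcript. It ran over exons 2 to 7 and past the 3′ end, covered 47.7% of the body and held 1060 coding bases for residues 135 to 488. At Tbx15 (chromosome 3, 99240381 to 99354259, plus strand) the residual domain of 3.6 kb (99243301 to 99246900) was intronic in the transcript that begins furthest upstream and lay wholly before the main one, at -10.5 to -6.86 kb from its start. Tbx15 also had an intermediate domain of 2.4 kb (99351601 to 99354000) on its last exon, which encodes residues 342 to 602, and another of 9.9 kb (99361201 to 99371100) that began 6.94 kb past its end. Tbx20 (chromosome 9, 24718138 to 24774303, minus strand) had an intermediate domain of 10.2 kb (24706201 to 24716400), 1.74 kb past its end, and none on its body. The stretches of Tbx1 and Tbx15 are shown because their domains are the richest and the poorest in CpG among the 12 residual ones.
Tbx1, residual, chr16:18582001-18582300, minus strand: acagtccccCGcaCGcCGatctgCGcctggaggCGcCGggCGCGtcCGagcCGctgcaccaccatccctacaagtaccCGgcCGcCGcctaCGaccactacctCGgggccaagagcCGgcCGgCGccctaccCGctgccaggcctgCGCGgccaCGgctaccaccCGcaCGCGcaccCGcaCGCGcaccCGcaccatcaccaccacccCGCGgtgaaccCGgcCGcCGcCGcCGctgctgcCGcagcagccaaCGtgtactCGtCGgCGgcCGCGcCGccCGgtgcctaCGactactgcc
Tbx15, residual, chr3:99244801-99245100, plus strand: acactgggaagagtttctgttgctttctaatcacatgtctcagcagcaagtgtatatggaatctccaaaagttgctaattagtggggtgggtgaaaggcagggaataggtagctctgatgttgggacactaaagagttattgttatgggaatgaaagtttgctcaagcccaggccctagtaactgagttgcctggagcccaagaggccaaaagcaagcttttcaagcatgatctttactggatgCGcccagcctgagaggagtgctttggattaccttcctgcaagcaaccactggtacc
The Tbx1 stretch, coding throughout, had 46 CpGs in 300 bases and a GC content of 76%, and the Tbx15 stretch had 1 CpG and 47.0%.

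All 7 T-box genes with a residual domain had one on the body, against 3.4% of all protein-coding genes, a share from which nothing is read since residual domains chose the list. Of the 12 residual domains, 9 overlapped the body of their own gene, and 10 (83.3%) overlapped the body of some protein-coding gene, against 46.0% of the 1948 other residual domains. Coding bases of the T-box gene itself lay in 7 of the 12, and with a coding exon of Bcas3 the count is 8 of 12 (66.7%). Of all 1960 residual domains, 25.3% overlap a coding exon part. The 12 were kept for lying on or within 10 kb of a T-box gene, while the other residual domains lie anywhere in the genome. A higher share on bodies and coding exons is built into that choice, so nothing is read from it. Only the Tbx4 domain at the third start reached within 1 kb of a coding start (1 of 12, 8.33%), against 16.8% of all residual domains. It was not at the start of the main transcript of Tbx4, and by main transcript starts none of the 12 was at a promoter. These counts depend on the rules: within 5 kb of a start there were 8 of the 12, and none of the 12 had more than 38.5% of its length in exons, so none would count as exonic if at least 50% were required. The midpoints of the 9 domains on bodies lay a median of 7.77 kb past the gene start (4.72 to 26.1 kb), against 17.1 kb for 1052 pairs of a residual domain and another coding gene, over 737 genes. A domain on several genes enters those pairs more than once. The median body length was 11.9 kb in the 10 T-box genes and 17.4 kb in all coding genes, so the distances are not length-matched. As a share of body length the order was the opposite, with a median midpoint at 52.7% in the T-box genes and 43.0% in those pairs. No test was made of these differences.

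Seen on the protein, 6 residual domains of 5 genes covered part of the T-box. The block of best conserved sequence in an alignment of the 10 proteins spanned 240 columns, of which 55 were identical in all 10, and is taken here as the T-box. Residual domains covered the exons for 183 of 216 T-box residues in Tbx1 (84.7%), 183 of 220 in Tbx2 (83.2%), 139 of 221 in Tbx3 (62.9%) and 50 of 207 in Tbx5 (24.2%). In Tbx4 they covered 41 (19.9%) and 32 (15.5%) of 206 residues, in separate domains. In T none of the 199 T-box residues was covered, and the residual domain of Tbx15 held no coding base.

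The first covered residue fell on the same alignment column, 43, in Tbx1, Tbx2, Tbx3 and Tbx4. Column 43 is where a coding exon begins in all 10 genes, so in those 4 genes the upstream edge of the domain lay in the intron before this shared exon boundary. The covered T-box columns were 43 to 240 in Tbx1 and Tbx2, 43 to 195 in Tbx3, 43 to 85 and 196 to 240 in Tbx4, and 85 to 135 in Tbx5. The next shared boundary, column 139, begins an exon in 9 genes, and column 196 in all 10. Tbx2 and Tbx3 were the most alike pair, with 90.9% identity over the block, and Tbx4 and Tbx5 followed with 89.8%, against a median of 52.9% over all 45 pairs. Tbx2 and Tbx3 thus had domains from the same exon on, while Tbx4 and Tbx5 had theirs over different exons. The genes share ancestry, so these are not independent cases.

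The linked pairs differed in what surrounded them. Tbx2 and Tbx4 lie 44.5 kb apart, and the 7 domains from 85825201 to 85924800 were all residual. They covered 29.4 kb (29.5%) of 99.6 kb, and the nearest domains beyond were an intermediate one 167 kb away on the Tbx2 side and a slow one 117 kb away on the Tbx4 side. Tbx3 and Tbx5 lie 148 kb apart, and between 119673901 and 119889000 there were 3 residual domains and 1 intermediate, covering 18 kb (8.37%) of 215 kb. A slow domain of 14.7 kb followed 6.90 kb further on. Chromosome 11 is rich in residual domains as a whole: 17.8% of its protein-coding genes have one within 10 kb, against 3.23% of genes off chromosomes 8 and 11. The run at Tbx2 and Tbx4 and this feature of their chromosome cannot be told apart. Off chromosome 11, 5 of 8 T-box genes had a residual domain, each with 1.

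**Figure D2:**
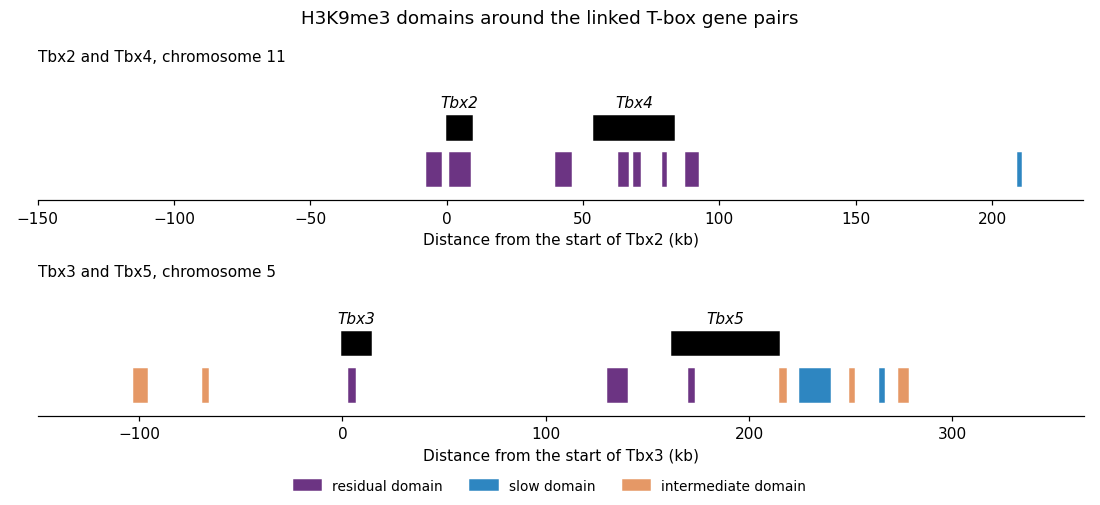
The linked pairs Tbx2 and Tbx4 (top) and Tbx3 and Tbx5 (bottom) in kb from the start of the first gene, with gene bodies in black and domains below, coloured by class. All 7 bars between the ends of the upper cluster are residual, and the lower pair has residual bars near Tbx3 and Tbx5, an intermediate bar after Tbx5 and a slow one beyond it.

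The residual domains at T-box genes were single-copy sequence with few repeats. Uniqueness was read from 31-base words every 100 bp, each counted across the genome. The share of unique words was 100% in 7 of the 12 domains and 88.9% in the lowest, at Tbx15, with a median of 100% against 95.2% in the 1948 other residual domains. The soft-masked (repeat) share had a median of 11.2% (2.83 to 22.3%), against 17.1%. The median GC content was 50.4% (46.4 to 58.1%), against 47.8%, and the median width 3.45 kb against 2.7 kb. The 487 other residual domains on coding exon parts had a GC content of 51.3%, a repeat share of 10.4% and a uniqueness of 100% in the median, which is close to the T-box values. Their median width was 3.0 kb. The 12 were kept for lying on or within 10 kb of a T-box gene. The 1948 others lie anywhere in the genome, so these medians are not matched.

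The 5 intermediate domains held more repeats. They had a median repeat share of 43.2% (10.8 to 88.8%), against 72.3% in the 30655 other intermediate domains. Their median unique share was 87.9%, against 50.0%. The 5 were kept for lying on or within 10 kb of a T-box gene, while the others lie anywhere in the genome, so these medians are not matched. In the 1400 other intermediate domains on coding exon parts, the medians were 21.0% repeats and 93.0% unique words. Of the 5, the longest were the most repetitive. The 9.9 kb domain past Tbx15 was 88.8% repeats with 33.3% unique words. The 10.2 kb domain past Tbx20 was 59.98% repeats with 50.0% unique words. The domain on the last exon of Tbx15 had 10.8% repeats and only unique words. A read from repeated sequence can match several copies, and no source used here says how such reads were assigned.

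CpG content divided the residual domains among themselves. The CpG ratio, the number of CpGs over the number expected from the C and G content, ranged from 0.0719 at Tbx15 to 0.524 at Tbx1, with a median of 0.228 against 0.193 in the other residual domains. Tbx2 followed Tbx1 with 0.453 on its body and 0.352 upstream, then Tbx3 with 0.363, Tbx5 with 0.266, and T with 0.217. The 5 domains of Tbx4 had ratios of 0.145 to 0.238. Bins of 300 bp with island-like composition (GC content of at least 50% and a ratio of at least 0.6) made up 5 of 18 in the Tbx1 domain, 5 of 24 in the Tbx2 body domain and 2 of 18 upstream of Tbx2. No other domain in the windows of the 10 genes had such a bin. Thus 3 of 12 (25.0%) had one, against 17.0% of the other residual domains. In the 487 other residual domains on coding exon parts, the median ratio was 0.273 and 35.5% had such a bin, both above the T-box values. These sets are not matched for position, so nothing is read from either contrast.

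**Figure D3:**
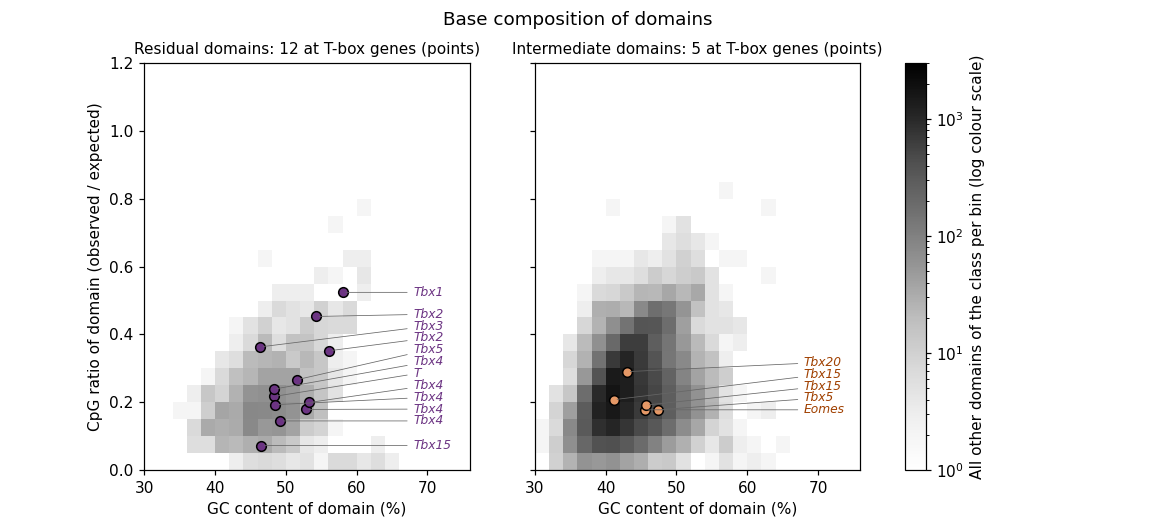
GC content (x axis, %) and CpG ratio (y axis) of the 12 residual (left, purple) and 5 intermediate (right, orange) domains at T-box genes, over grey bins that count all other domains of the class on a log colour scale. The T-box residual points reach from 0.0719 at Tbx15 to 0.524 at Tbx1 in CpG ratio, and the intermediate points stay between 0.177 and 0.290.

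The domains lay beside, not on, the CpG-dense starts of most of these genes. In T the residual domain held 12.7 CpGs per kb, against 15.2 in the rest of the window outside domains and 62.5 in the 2 kb around the main start. Tbx3 had 19.3 CpGs per kb in the domain and 71.0 at the start, and Tbx2 had 30.9 in its domains and 87.0 at the start. In Tbx4 the domains held 12.7 per kb and the main start 39.5, and in Tbx15 the domain held 3.89 and the main start 47.0. Tbx1 and Tbx5 were the genes whose domains exceeded the rest of the window. In Tbx1 the domain had 44.1 CpGs per kb, against 21.4 in the rest of the window and 80.0 at the main start. In Tbx5 it had 17.6, against 14.6 in the rest of the window and 16.5 at its CpG-poor main start. The profiles along 4 of the genes show the peak at the start and, in Tbx1 and Tbx2, another peak inside the residual domain.

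**Figure D4:**
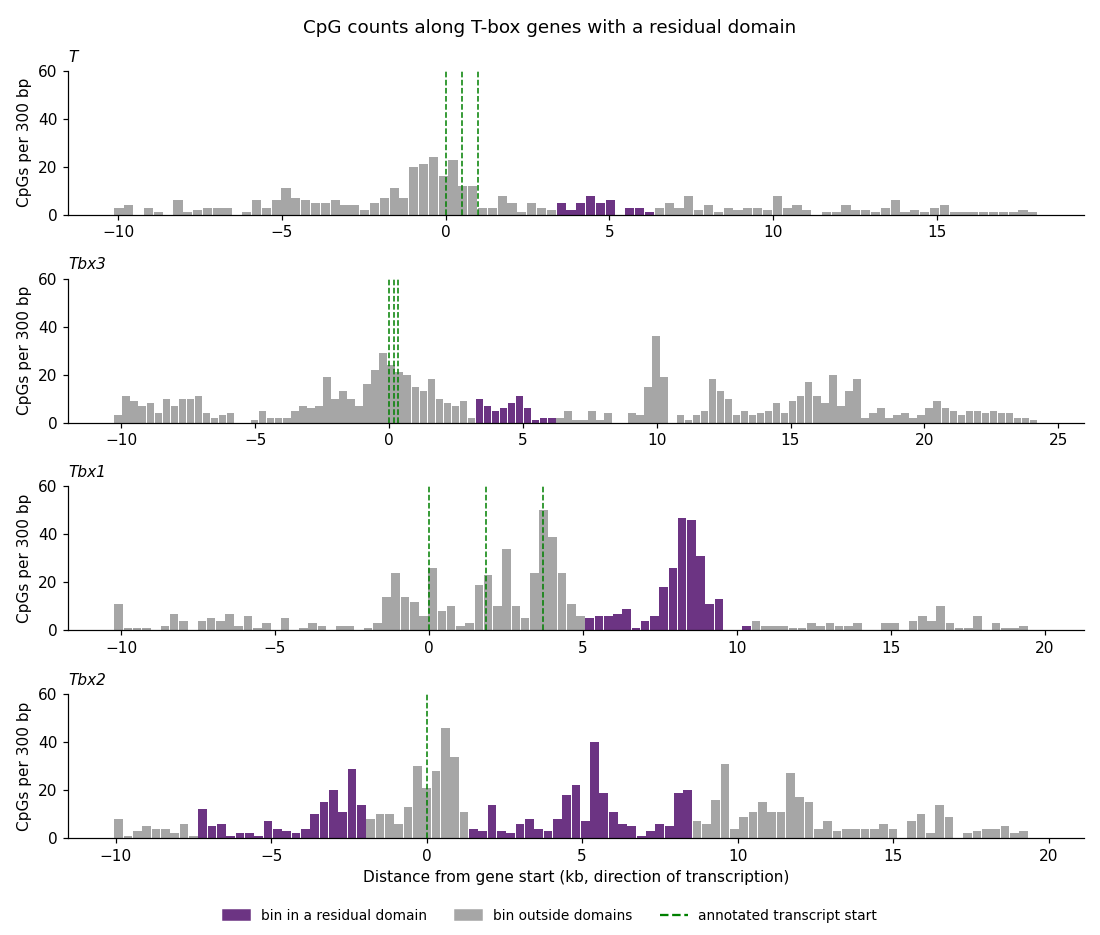
CpGs per 300-bp bin (y axis) along T, Tbx3, Tbx1 and Tbx2 against distance from the gene start (x axis, kb), with bins in residual domains in purple, bins outside domains in grey and annotated starts as dashed green lines. In T and Tbx3 the purple bins are low beside the peak at the start, and in Tbx1 and Tbx2 the purple bins include a peak of their own over coding exons or, in Tbx2, also upstream.

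The core T-box binding sequence, the motif AGGTGTGA searched on both strands, was found in 2 of the 12 residual domains (16.7%), both at Tbx4, against 18.4% of the other residual domains. It was found in 1 of the 5 intermediate domains (20.0%), that past Tbx20, against 9.76% of the others. These shares come from domains of unequal length and describe the letters only.

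Of the 7 other T-box genes (Tbx10, Tbx18, Tbx19, Tbx21, Tbx22, Tbr1 and Mga), 3 had any domain (42.9%), close to the 42.2% of all protein-coding genes. None of the 7 had a residual domain, where 5.05% of all protein-coding genes have one, so the absence is no result about these 7. Tbx19, which sets pituitary corticotroph identity, had 2 intermediate domains, of 2.7 kb on a coding exon and of 3.9 kb at 9.63 kb from the body. Tbx21, the T-bet factor of T helper cells, had an intermediate one of 1.5 kb at 8.77 kb. Tbr1, a factor of cortical neurons, had a fast domain of 1.8 kb, 0.286 kb past its body, with a GC content of 60.8% and a CpG ratio of 0.758. Tbx18, Tbx22 and Tbx10 had their nearest domains 22.6, 26.5 and 27.1 kb away, and Mga had its nearest at 248 kb.

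Other developmental genes shared the residual class in part. Of 22 genes of early mesoderm and the node, 9 had a residual domain (40.9%), among them Wnt3 with 38.4 kb and Dll1, a Notch ligand, with 6.6 kb. Lhx1, Wnt3a and Foxc2 were others, and Shh, the ligand of the notochord, had a fast domain of 6.6 kb. Wnt3, Lhx1 and Wnt3a lie on chromosome 11 and Foxc2 on chromosome 8. Off chromosomes 8 and 11 the residual count was 5 of 18, among them Dll1. Of 20 heart and limb genes, 6 had one, namely Hand2, Gata6, Gata4, Gata5, Myh6 (7.8 kb) and Myl7 (1.5 kb), and off chromosomes 8 and 11 it was 4 of 17. Of the 8 pluripotency genes none had a residual domain, where 5.05% of all protein-coding genes have one, so the absence is no result about these 8. The share was 7 of 10 (70.0%) in the T-box genes, against 5 of 9 (55.6%) in the Pax factors and 3 of 6 (50.0%) in the Gata factors, whose Gata4, Gata5 and Gata6 are also among the heart genes. Off chromosomes 8 and 11 it was 5 of 8 in the T-box genes, while no Pax or Gata gene lies on either chromosome. The Pax and Gata lists are whole families, and with the 7 other T-box genes the T-box count is 7 of 17 (41.2%), below both. The median body was 55.0 kb in the Pax and 25.9 kb in the Gata genes. It was 11.9 kb in the 10 T-box genes and 21.0 kb in the 7 others, so the shares are not length-matched. These families were set side by side with their residual domains already known, and no difference among them was tested.

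**Figure D5:**
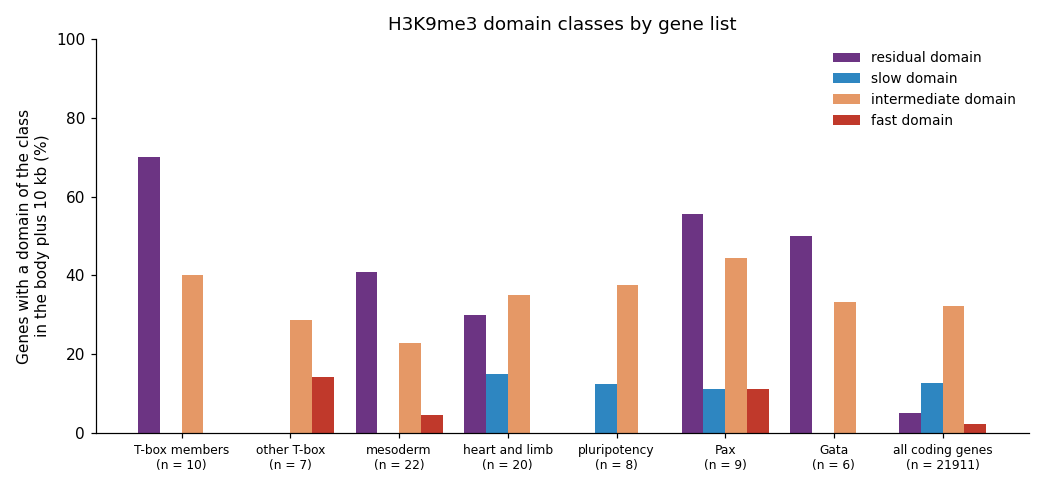
Share of genes (y axis, %) with a domain of each class in the body plus 10 kb, for the 10 T-box genes, the other 7 T-box genes, 5 further lists and all protein-coding genes, with n below each group. Purple bars for the residual class stand at 70.0% in the T-box genes listed, at 0 in the other T-box and pluripotency genes, and at 5.05% in all protein-coding genes.

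Protein-coding genes were also ranked by how alike their windows were to that of each T-box gene, as the sum of differences in the share of the window held by each class, among 1106 genes with a residual domain. Nothing per sample stands behind this ranking. Tbx5 and Tbx15 were among each other's 3 nearest, with a difference of 0.676 percentage points: residual domains held 2.89% of the window at Tbx5 and 2.69% at Tbx15, and intermediate ones 4.55% at Tbx5 and 4.08% at Tbx15. The nearest to T (10.7% residual) were Otop2, Entpd2 and Aqp2. The nearest to Tbx1 (18.2%) were Gm11444, Myh4 and Pmp22, and to Tbx2 (42.9%) Hmx1, Thbs2 and Dio3. The nearest to Tbx3 (8.81%) were Slc4a1, Bhlhe41 and Gm21188. The nearest to Tbx4 (26.1%) were Wnt9b, Crygs and Nkx2-3. Stat3 was among the 3 nearest of both Tbx5 and Tbx15, with Tnni1 for Tbx5 and Ptpdc1 for Tbx15.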

How the data were processed

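ChIP-seq of H3K9me3, HP1β and inputs in dTKO cells was sampled over 48 h. The file used is the authors' deposited table of 43039 H3K9me3 domains (chromosome, start, end and decay class in words), with 0 columns of sample values, so depth and precision per domain are unknown and no test, pairing or time comparison was possible. The submitters' processing notes name bedtools, deepTools, SAMtools 1.1 and Bowtie2 2.3.4.1 as tools and GRCm38, mm10, mm9 and dm6 as builds. HP1β and input measurements were not analysed here. The 216 runs were grouped by antibody or input and by time.

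Coordinates are 1-based, on GRCm38.p6 with GENCODE vM21. An overlap needed 1 bp, a promoter was 1 kb either side of a coding transcript's start, and the main transcript was the complete principal one with the longest coding part. The 149 domains on unplaced sequences were left out. GC content, CpG ratio, masking, the motif and 31-mers every 100 bp were read from the sequence. The proteins were translated from GENCODE coding sequences, not taken from RefSeq as planned, and aligned with MAFFT 7.526; the T-box is the run of columns (gaps of up to 15) with the most identical ones. Software was Biopython 1.88, matplotlib 3.10.9, numba 0.67.0, pandas 2.3.3, numpy 2.4.6 and Python 3.11.15, and the overlap, repeat and motif steps were tested on simulated data.

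Named are all 10 genes, the other T-box genes, genes overlapped by their domains, up to 6 genes per further list with the most bases in residual or fast domains, and the 3 genes most alike in window shares. The members and lists were chosen with earlier results of these data known. Alternatives changed the window, the overlap, the domain width, the joining of domains, the promoter, the exon rule and the chromosomes used.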

Additional observations from a re-analysis of the deposited data

How the results depend on the processing

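The count of 7 T-box genes with a residual domain was the same for windows of the body alone and of the body plus 5 or 50 kb, for domains with their midpoint in the window, for domains over 1.5 kb and for same-class domains under 5 kb apart joined. The number of domains was not: the 17 became 10 on the body alone and 27 with 50 kb. Domains at a promoter numbered 8 within 5 kb of a start, against 1 within 1 kb. With at least 50% of a domain required in exons, 1 of the 9 exonic domains remained. Other alternatives were chosen after seeing the data. Without Tbx2 and Tbx4, on chromosome 11, there were 10 domains, 5 of them residual against 12 with both genes, and 5 genes with a residual domain. With starts of main transcripts only, 0 domains were at a promoter. Of 32 alternative values, 25 were within 1.5 times the main one. No paired analysis was possible because the table has no values per sample. The depth behind a class is unknown.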
